A study of Mus musculus with 9 samples.

Results

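*Irx1*, *Irx2*, *Pou3f4* and *Hhex* encode transcription factors of the alpha and delta cells of the pancreatic islet. They were taken by gene symbol, and every probe set that the platform annotation pairs with 1 of these 4 symbols and no other was used, which gave 5 of 45037 probe sets. All 4 genes were among the 13644 genes tested of the 18193 that had a probe set of their own. The arrays compared islets of mice lacking *Raptor* in beta cells (KO, *Raptor* flox/flox with a Cre transgene under the rat insulin promoter, 4 arrays) with islets of their littermates (WT, *Raptor* flox/flox without Cre, 5 arrays). All mice were males of 8 weeks, and both groups carried the floxed alleles, whereas only KO mice carried Cre. Mice with Cre and intact *Raptor* were not analysed here. Each array held RNA pooled from the islets of 5 animals of 1 genotype. The Cre line was of mixed background and the floxed line C57BL/6J, and the transgene drives Cre wherever the rat insulin promoter is active. *Raptor* (symbol *Rptor*) encodes the scaffold of mTORC1, the kinase complex that ties cell growth to nutrients, and the comparison asked which islet transcripts differ once beta cells lose it.

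Alpha cells make glucagon and delta cells make somatostatin, and both surround or lie between the more numerous beta cells of a mouse islet. *Irx1* and *Irx2* are neighbouring genes of the Iroquois homeobox family and mark glucagon cells in the mouse pancreas. *Pou3f4*, also called *Brn4*, encodes a POU homeodomain protein that binds the glucagon gene promoter. *Hhex* encodes a homeodomain protein that adult islets restrict to delta cells, where mice need it to keep somatostatin expression, and it is also known from endothelial and duct cells. In whole islets a larger share of a cell type and more RNA per cell cannot be told apart.

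Values are log2 signals as deposited, a level is given per array, and each difference is KO minus WT on the log2 scale with its standard error (SE). The arrays gave *Rptor* levels of 8.59, 8.48, 9.21 and 8.73 in KO islets, against 9.53, 9.59, 9.71, 9.22 and 9.30 in WT islets, for its brightest probe set. *Rptor* was lower by a difference of -0.72 ± 0.17 (limma adjusted p = 0.0410), and 8 of 21 other settings kept this call, which was lost without KO replicate 1, 2 or 4 or WT replicate 1, 2, 3 or 5 (-0.63 to -0.76, limma adjusted p from 0.0509 to 0.115). The mean of all *Rptor* probe sets gave -0.16 (limma adjusted p = 0.888), and fits with the mean of stromal or of endothelial markers as a covariate gave -0.49 and -0.41, neither called. Across all genes 860 (6.3%) passed an adjusted p of 0.05, 501 higher (3.67%) and 359 lower (2.63%) in KO islets, or 214 and 260 with each array centred on its median. The hormone genes were bright in every array, *Gcg* (glucagon) at 15.20 ± 0.08 and 15.30 ± 0.13, *Sst* (somatostatin) at 15.17 ± 0.10 and 15.21 ± 0.09, *Ppy* (pancreatic polypeptide) at 15.29 ± 0.10 and 15.43 ± 0.12 and *Ins2* (insulin) at 14.10 ± 0.17 and 14.15 ± 0.25 in KO and WT islets (mean ± SD, n = 4 and n = 5). The highest value of any probe set was 15.56, so the signals of *Gcg*, *Sst* and *Ppy* lay at the top of the scale, where differences can be compressed. The signal of *Ins2* lay below them.

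The promoters of the genes are shown because *Hhex* and *Irx2* were the pair of factors whose signals separated the groups. Each line gives the 250 bases before the RefSeq start of the gene (GRCm38.p6, plus strand, 5′ to 3′), with CCAAT boxes on either strand in capitals.
*Hhex*, chr19:37434591-37434840: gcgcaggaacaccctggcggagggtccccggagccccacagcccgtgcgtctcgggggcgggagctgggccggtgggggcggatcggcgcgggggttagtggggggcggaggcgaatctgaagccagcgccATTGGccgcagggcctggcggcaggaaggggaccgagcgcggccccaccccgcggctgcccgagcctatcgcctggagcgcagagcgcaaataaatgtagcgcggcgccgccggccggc
*Irx2*, chr13:72628570-72628819: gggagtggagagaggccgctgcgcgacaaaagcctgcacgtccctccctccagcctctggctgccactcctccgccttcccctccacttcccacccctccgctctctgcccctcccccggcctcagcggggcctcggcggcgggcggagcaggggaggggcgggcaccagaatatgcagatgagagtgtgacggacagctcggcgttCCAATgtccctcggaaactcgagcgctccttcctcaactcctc
*Pou3f4*, chrX:110814129-110814378: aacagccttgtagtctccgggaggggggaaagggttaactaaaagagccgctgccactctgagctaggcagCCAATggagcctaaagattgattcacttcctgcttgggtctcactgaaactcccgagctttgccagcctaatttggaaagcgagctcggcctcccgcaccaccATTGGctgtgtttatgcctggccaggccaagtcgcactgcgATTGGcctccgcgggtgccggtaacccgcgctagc

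The table of promoters held 3 of the 4 genes. The windows of *Hhex* and *Irx2* were rich in G and C, at 76.0% and 68.4%, with 32 and 19 CG pairs, and that of *Pou3f4* had 58.0% and 13 pairs. The median over 32851 promoter windows of the same length was 52.4% with 6 CG pairs. CCAAT (or its complement ATTGG) occurred 1 time in *Hhex*, 119 bases before the start, and 1 time in *Irx2*, 43 bases before it, and 33.8% of all windows held it. *Pou3f4* held it 3 times, 179, 76 and 35 bases before the start, and 2.79% of all windows held it at least 3 times. The homeodomain core TAAT was found in *Pou3f4* alone of the 3 (54.9% of all windows). TATAAA (12.4%), the Iroquois palindrome ACANNTGT described for the fly protein Mirror (6.31%) and the POU octamer ATGCAAAT (1.60%) were found in none of the 3 windows on either strand. These matches describe the letters only.

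*Hhex* was higher in KO islets. Its single probe set, 1423319_at, read 10.68, 9.98, 10.30 and 10.57 in KO arrays, against 9.38, 9.43, 9.52, 9.72 and 9.68 in WT arrays. Every KO array lay above every WT array, and the lowest KO value and the highest WT value were those of KO replicate 2 and WT replicate 4. The means were 10.38 ± 0.31 (SD, n = 4) in KO and 9.54 ± 0.15 (SD, n = 5) in WT islets, so *Hhex* rose 1.79-fold (0.84 ± 0.15, 95% interval 0.49 to 1.18, limma adjusted p = 0.0155). It was the 1 gene of the 4 that passed the test, where 6.3% of all tested genes did and 3.67% did so upwards.

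*Irx2* had a difference of similar size. Its probe set, 1426298_at, read 10.25, 9.83, 10.22 and 9.92 in KO arrays, against 9.04, 9.06, 9.41, 9.49 and 9.80 in WT arrays. The groups did not overlap here either, but the highest WT array, replicate 5 at 9.80, lay just under the lowest KO array, replicate 2 at 9.83. The means were 10.06 ± 0.21 (SD, n = 4) in KO and 9.36 ± 0.32 (SD, n = 5) in WT islets, a difference of 0.69 ± 0.18 or 1.62-fold (95% interval 0.30 to 1.09). *Irx2* missed the threshold (limma adjusted p = 0.0515). Without WT replicate 5 the difference was 0.80 ± 0.15 and passed it (limma adjusted p = 0.0252). Groups without overlap were seen for 2 of the 4 genes, *Hhex* and *Irx2*, and for 12.5% of all tested genes, with KO above WT in 7.43% and below it in 5.05%.

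*Irx1*, which lies next to *Irx2* on chromosome 13, gave overlapping groups. Probe set 1451983_at read 9.03, 8.79, 9.08 and 9.18 in KO arrays, against 8.45, 8.71, 9.14, 8.90 and 9.06 in WT arrays. The difference was 0.17 ± 0.15 (95% interval -0.18 to 0.52, limma adjusted p = 0.586), so a rise of up to 0.52 and a fall of up to 0.18 were both within the interval. Without WT replicate 1, the lowest array, the difference was 0.070. Its KO values were the closer together, with an SD of 0.17 against 0.28 in WT arrays.

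*Pou3f4* was dim, and its 2 probe sets gave no separation. The brighter, 1422165_at, read 5.67, 6.59, 5.41 and 5.24 in KO arrays, against 5.84, 5.14, 5.30, 4.81 and 6.92 in WT arrays. The highest and the lowest value both belonged to WT arrays. The difference was 0.12 ± 0.44 (limma adjusted p = 0.912), with a 95% interval from -0.87 to 1.12. The other probe set, 1422164_at, read 5.41, 6.32, 6.38 and 3.58 in KO arrays, against 5.25, 5.14, 5.58, 5.37 and 5.79 in WT arrays. Of its KO arrays 2 lay above and 1 below all WT arrays, and the difference was -0.0027 ± 0.55. The signal of *Pou3f4* stood at the 26.7th percentile of all genes by mean, just above the filter on the lowest 25%.

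**Figure D1:**
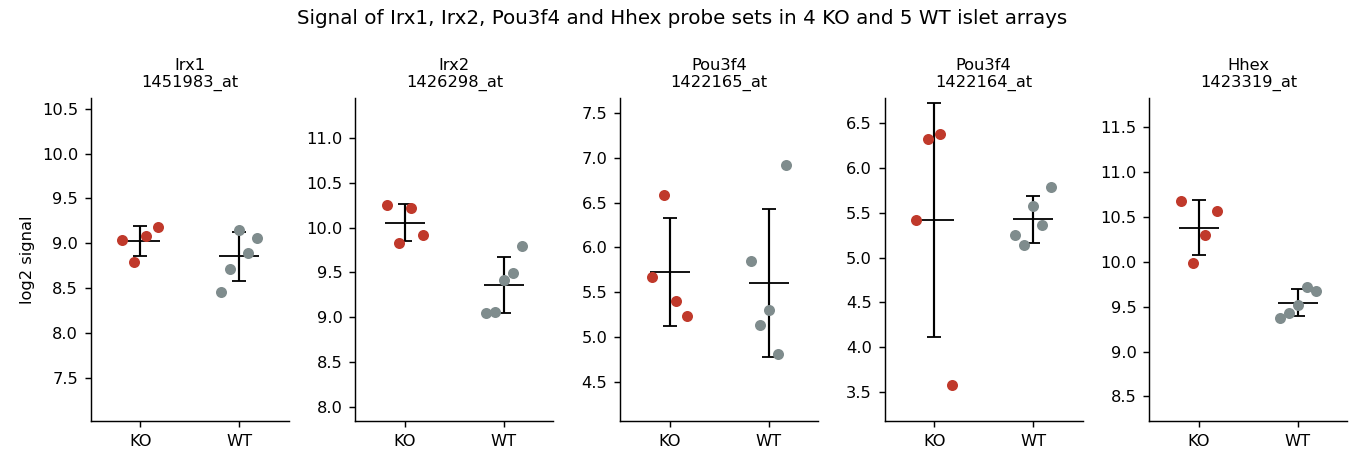
Log2 signal (vertical axes, all of the same span) of the 5 probe sets of *Irx1*, *Irx2*, *Pou3f4* and *Hhex* in each KO (red, 4 arrays) and WT (grey, 5 arrays) islet array, with the group mean and SD in black. *Hhex* and *Irx2* lay higher in all KO arrays than in any WT array, and the values of *Irx1* and *Pou3f4* overlapped.

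Fitted over all 45037 probe sets rather than 1 per gene, the differences of the 5 probe sets stayed as given and none passed the test. *Hhex* then had a limma adjusted p of 0.0897 and an unadjusted p of 0.00105, and *Irx2* an adjusted p of 0.194 and an unadjusted p of 0.00659. In that fit 0.542% of probe sets passed the adjusted threshold, 0.24% upwards, and 11.8% had an unadjusted p under 0.05. With the 2 probe sets of *Irx2* and *Hhex* below 0.05, the unadjusted count was 2 of 5.

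The changes of the 4 genes were then set against each other within arrays, which made 6 pairs. The change of *Irx2* exceeded that of *Irx1* by 0.52 (two-sided exact permutation test, p = 0.00794, or 0.0238 with Benjamini-Hochberg adjustment for 6 pairs), and 0.00794 is the smallest value that 4 and 5 arrays can give. The change of *Hhex* exceeded that of *Irx1* by 0.67, with the same exact permutation p and adjusted p. *Hhex* and *Irx2* differed by 0.14 in their changes (exact permutation p = 0.381). Against *Pou3f4* the changes of *Irx1*, *Irx2* and *Hhex* differed by 0.05, 0.57 and 0.71, with exact permutation p between 0.254 and 0.952, and these values moved widely when 1 array was left out. The probe sets of the neighbouring Iroquois genes *Irx1* and *Irx2* thus had unequal changes in the same arrays. Whether these probe sets respond alike to their transcripts was not tested.

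Deviations of single arrays from their group means gave a further description. Over 9 arrays *Irx2* and *Hhex* had a Pearson r of 0.89, which contains the difference between the groups, and an r of 0.61 after the group means were taken out. *Irx1* and *Irx2* had r = 0.68, and 0.71 without the group means, although *Irx1* did not separate the groups. *Irx1* and *Hhex* had r = 0.58 and 0.60. *Pou3f4* had r between -0.10 and 0.21 with the other three, and between -0.31 and 0.23 without the group means. These values share the arrays and their scaling, and 9 points allow only a rough estimate.

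The hormones of alpha and delta cells gave overlapping groups. *Sst* read 15.25, 15.17, 15.04 and 15.24 in KO arrays, against 15.18, 15.22, 15.23, 15.08 and 15.34 in WT arrays, a difference of -0.04 ± 0.09 (limma adjusted p = 0.850). *Gcg* read 15.23, 15.20, 15.10 and 15.28 in KO arrays, against 15.34, 15.33, 15.23, 15.13 and 15.48 in WT arrays, a difference of -0.10 ± 0.09 (limma adjusted p = 0.592). Both signals lay at the top of the scale on every array, so these values cannot show by how much the hormone transcripts differed. For the same reason the difference between a factor and its hormone mostly restates that of the factor: it was 0.88 ± 0.15 for *Hhex* minus *Sst*, and 0.79 ± 0.19, 0.27 ± 0.17 and 0.22 ± 0.39 for *Irx2*, *Irx1* and *Pou3f4* minus *Gcg*. These values are given as a description, and limma's calls in these fits (5.97% of genes against *Sst*, 5.64% against *Gcg*) are not read as a change relative to the hormone.

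Other genes of alpha and delta cells were counted from fixed lists. Of 4 tested alpha cell genes, 0 passed limma's test, 0 had an unadjusted p under 0.05, 0 passed the methods' t-test, and their median difference was -0.01. This median includes *Gcg* and *Ttr*, and *Ttr* (means 15.23 in KO and 15.36 in WT, difference -0.13 ± 0.11) also lay at the top of the scale. The less bright *Slc7a2* and *Slc38a5* differed by 0.08 ± 0.09 and 0.70 ± 0.39. The list thus cannot show that alpha cell genes were unchanged. Of 5 tested delta cell genes, 0 passed limma or the methods' t-test, 1 had an unadjusted p under 0.05, and the median was -0.04. Over all tested genes 21.8% had an unadjusted p under 0.05, 5.26% passed the methods' t-test after adjustment, and the median difference was 0.04. That 1 gene, chosen for mention after its values were seen, was *Rbp4*, which encodes a retinol carrier. *Rbp4* read 13.58, 13.16, 13.45 and 13.57 in KO arrays, against 12.79, 12.48, 13.04, 13.02 and 13.07 in WT arrays. Its groups did not overlap and its difference was 0.56 ± 0.15 (limma adjusted p = 0.0642). Of *Ppy*, *Pyy* and *Ghrl*, the 3 hormone genes listed for PP and epsilon cells, 0 passed limma or the methods' t-test and 0 had an unadjusted p under 0.05, with *Ppy* at -0.14 ± 0.09.

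Among other transcription factors of islet cells, 1 of 5 tested regulators of the glucagon gene or of alpha cells fell and 0 rose. It was *Neurod1*, a factor of all islet endocrine cells, at 12.87, 13.04, 12.98 and 12.92 in KO arrays, against 13.65, 13.55, 13.27, 13.41 and 13.38 in WT arrays (difference -0.50 ± 0.10, limma adjusted p = 0.0212). It missed the threshold without KO replicate 1, 3 or 4 (-0.48 to -0.51, limma adjusted p from 0.0579 to 0.0723). With the stromal mean as a covariate its difference was -0.18 and with the endothelial mean -0.31, neither called. Of 10 tested factors shared by islet endocrine cells 1 fell, again *Neurod1*, 0 rose, and their median was -0.10. Of the 10, 2 had a positive difference, against 56.2% of all tested genes. Over all tested genes 2.63% fell and 3.67% rose.

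Of the family of *Irx1* and *Irx2*, 2 further genes were tested. *Irx3*, an Iroquois gene of another cluster, read 7.82, 7.52, 7.90 and 7.72 in KO arrays, against 6.35, 7.06, 7.10, 6.25 and 6.41 in WT arrays. It rose by 1.11 ± 0.20 (limma adjusted p = 0.0169) without overlap of the groups, and missed the threshold without KO replicate 1 (1.08, limma adjusted p = 0.0566) or 3 (1.05, limma adjusted p = 0.0560). *Irx5* did not pass. Over all tested genes 3.67% rose, and 7.43% had KO above WT without overlap. *Irx3* was dim in WT arrays, where the medians over all probe sets were 6.87 to 7.02. *Irx4* and *Irx6* were below the filter on dim genes, and so were all 3 relatives of *Pou3f4* (*Pou3f1*, *Pou3f2* and *Pou3f3*).

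Receptors of islet and gut hormones were counted as well. Of 7 tested receptors of somatostatin, glucagon and the incretins 1 rose and 1 fell, where 3.67% of all tested genes rose and 2.63% fell. The methods' t-test called 1 of the 7 after adjustment, where it called 5.26% of all tested genes. No tested somatostatin receptor was called. *Gcgr*, the glucagon receptor, read 10.31, 10.66, 10.34 and 10.66 in KO arrays, against 9.62, 9.65, 9.78, 9.61 and 9.89 in WT arrays, and rose by 0.78 ± 0.11 (limma adjusted p = 0.00654). It kept its call in 19 of 22 other settings. The call was lost with replicate number as a block (0.83, limma adjusted p = 0.0632). It was also lost with the stromal (0.53) or endothelial (0.37) mean as a covariate. *Gipr*, the receptor of the incretin GIP, was lower by a difference of -1.25 ± 0.30 (limma adjusted p = 0.0433), and 7 of 21 other settings kept this call, which was lost when KO replicate 1, 2, 3 or 4 or WT replicate 1, 2 or 4 was left out (-1.09 to -1.32, limma adjusted p from 0.0745 to 0.109).

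**Figure D2:**
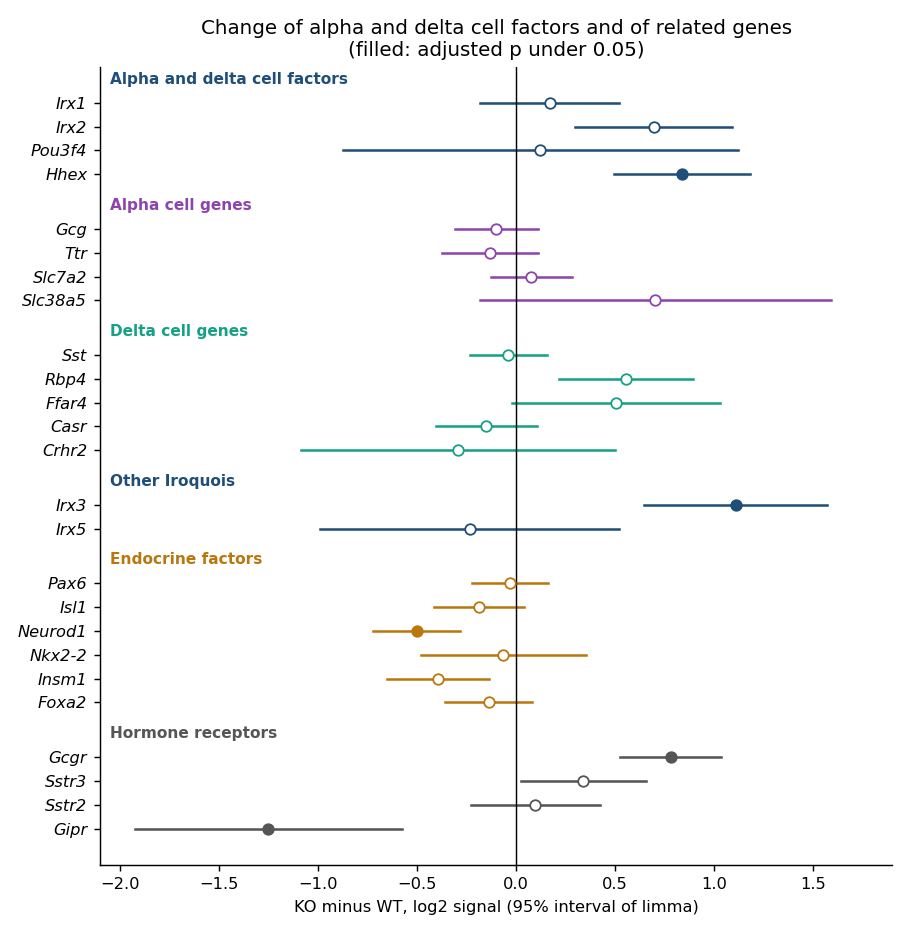
Difference between 4 KO and 5 WT islet arrays (KO minus WT, log2 signal, horizontal axis) with its 95% interval for *Irx1*, *Irx2*, *Pou3f4*, *Hhex* and related genes, filled where the adjusted p was under 0.05. *Hhex*, *Irx3* and *Gcgr* lay to the right of 0 and passed the test, *Sst* and *Gcg* lay near 0, and *Neurod1* and *Gipr* lay to the left.

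The genes on either side of the factors on their chromosomes were measured as well. Of the protein-coding neighbours up to 2 genes away that were no factors themselves, 6 were tested, 0 passed limma's test or the methods' t-test, and 1 (*Kif11*) had an unadjusted p under 0.05. Over all tested genes these shares were 6.3%, 5.26% and 21.8%. *Ide* and *Kif11*, on one side of *Hhex* on chromosome 19, differed by 0.14 ± 0.11 and 0.55 ± 0.19, the second with an adjusted p of 0.130 by limma, and *Exoc6*, on the other side, by 0.015 ± 0.086. *Ide* encodes an insulin-degrading protease, *Kif11* a spindle motor of dividing cells and *Exoc6* a subunit of the exocyst. *Adamts16* and *Ice1*, beside *Irx1*, differed by 0.46 ± 0.21 and 0.0072 ± 0.096, and *Rps6ka6*, near *Pou3f4* on chromosome X, by 0.55 ± 0.29. Of the 4 genes tested in this stretch of chromosome 19, *Hhex* alone was called, where 6.3% of all tested genes were.

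Markers of other cells were counted beside *Hhex* and *Irx2*. Of 16 endothelial markers, cells that also express *Hhex*, 1 rose (*Sox17*, 1.19 ± 0.19, limma adjusted p = 0.00885) and 15 had positive differences, with a median of 0.35, where 3.67% of all tested genes rose and 56.2% had a positive difference. Their mean signal ranged from 9.60 to 9.82 in KO arrays and from 9.14 to 9.38 in WT arrays, and no marker averaged under 7.22. *Hhex* had r = 0.78 with this mean over 9 arrays and -0.22 within the groups. With that mean as a covariate the difference of *Hhex* was 1.04 ± 0.38 (limma adjusted p = 0.752), a fit in which 1 gene of all was called. As the endothelial mean did not overlap between the groups, this fit cannot separate it from genotype. Of 3 tested duct markers 0 passed limma or the methods' t-test and 1 had an unadjusted p under 0.05. Over all tested genes these shares were 6.3%, 5.26% and 21.8%. The mean of the duct markers ranged from 8.09 to 8.69 in KO arrays and from 6.73 to 7.92 in WT arrays. Dim readings weighed on this mean, with *Krt19* at 3.08 to 6.40 in WT arrays and *Sox9* at 1.66 in WT replicate 4. The bright duct marker *Krt7* differed by 0.11 ± 0.09. What part endothelial or duct cells had in the *Hhex* difference was not tested.

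Stromal markers had the largest median difference of the lists described here. Of 14 stromal markers (collagens and other genes of fibroblasts and pericytes) 9 rose and 0 fell. The methods' t-test called 4 of the 14 after adjustment, where it called 5.26% of all tested genes. Over all tested genes 3.67% rose and 2.63% fell. The median of the markers was 1.31, and their mean ranged from 9.65 to 10.18 in KO arrays and from 8.15 to 9.22 in WT arrays. *Irx2* followed this mean with r = 0.91 over all arrays and 0.69 within the groups, and *Hhex* with 0.88 and 0.45. With the stromal mean as a covariate *Irx2* differed by 0.08 ± 0.29 (limma adjusted p = 0.928) and *Hhex* by 0.50 ± 0.30 (limma adjusted p = 0.505), and 5 genes of all were called. The difference of *Rbp4* was 0.02 ± 0.25 in this fit. That of *Irx3* was 1.10 ± 0.45 and was no longer called (limma adjusted p = 0.348). As the stromal mean did not overlap between the groups, the fit cannot separate it from genotype.

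Products of mature beta cells went the other way. Of 5 tested beta cell factors 2 fell and 0 rose (median -0.19), and of 8 tested products 4 fell and 0 rose, with a median of -0.81. The methods' t-test called 1 of the factors and 5 of the products after adjustment, and 5.26% of all tested genes. Over all tested genes 2.63% fell and 3.67% rose. The mean of the products ranged from 12.59 to 12.83 in KO arrays and from 13.26 to 13.73 in WT arrays. Over 9 arrays *Hhex* and *Irx2* had r = -0.94 and -0.89 with this mean, and -0.64 and -0.64 within the groups. The means of 9 macrophage markers (8.36 to 8.91 in KO arrays, 8.26 to 8.58 in WT arrays), of 5 lymphocyte markers (6.67 to 8.46 and 6.79 to 7.22) and of 7 acinar markers (8.57 to 12.50 and 8.99 to 12.25) overlapped between KO and WT arrays, and 1 macrophage marker (*C1qa*), 0 lymphocyte markers and 1 acinar marker (*Bhlha15*) rose. That of 5 Schwann and glial markers, of which 1 rose, did not overlap (7.19 to 7.42 and 5.82 to 6.87). The part of these cells in the differences of *Hhex* and *Irx2* was not tested.

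**Figure D3:**
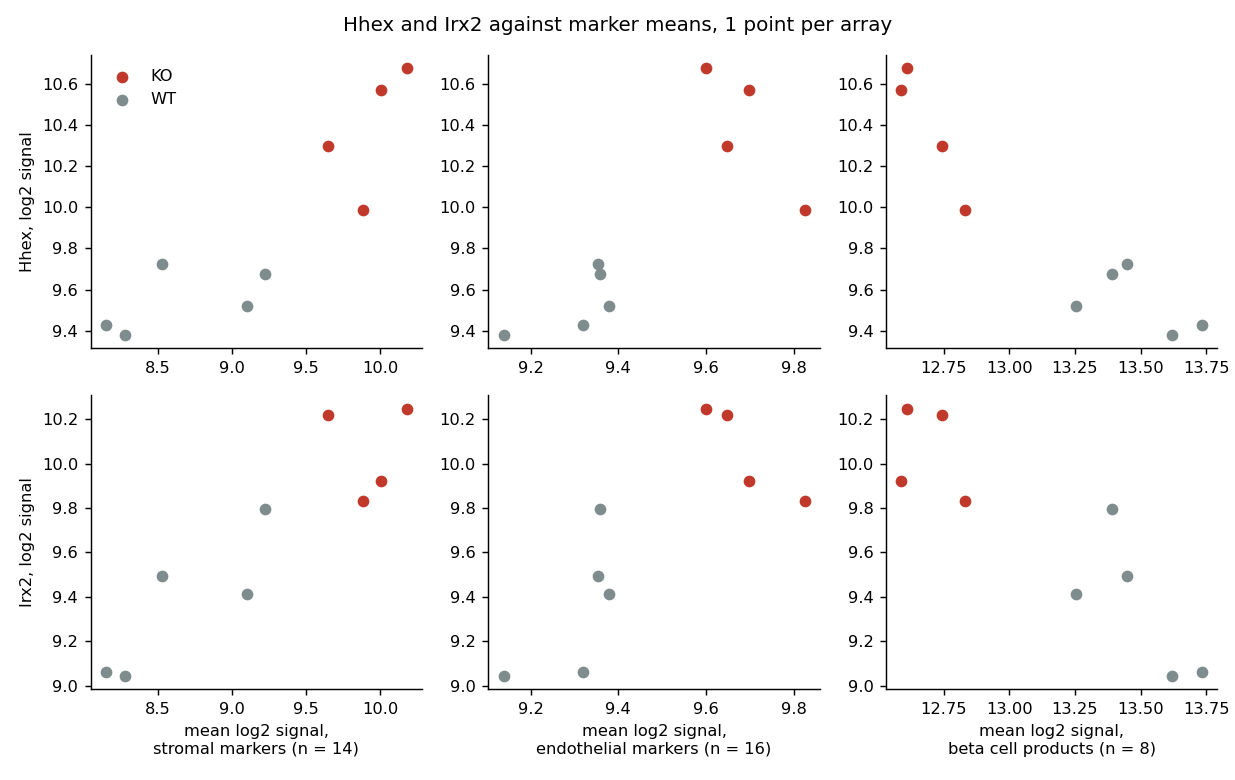
Log2 signal of *Hhex* (top) and *Irx2* (bottom) in each KO (red, 4 arrays) and WT (grey, 5 arrays) islet array against the mean log2 signal of 14 stromal markers, 16 endothelial markers and 8 beta cell products. Both genes were high where the stromal mean was high and the beta cell mean was low. Within the KO arrays *Hhex* was lowest in the array with the highest endothelial mean. Within the WT arrays it was lowest in the array with the lowest endothelial mean.

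The genes most like each factor over the 9 arrays were found by Pearson's r among all tested genes, as a description without a test. For *Hhex* they were *Eif3h*, a subunit of a translation initiation factor, *Ccpg1* and *Mdm1* (each r = 0.98, and 0.90 to 0.91 within the groups). For *Irx2* they were *Snx18* (r = 0.98), a sorting nexin, *Rnf19a* (r = 0.97) and *Dusp22* (r = 0.96), with r within the groups between 0.92 and 0.96. For *Irx1* they were *Nup50* (r = 0.97), a nuclear pore protein, *Rcsd1* (r = 0.96) and *Dus3l* (r = 0.95). For *Pou3f4* they were *4933400F21Rik* (r = 0.91), *Trim12a* (r = 0.88) and *Rnf10* (r = 0.88), the lowest of the 4 sets. With 9 arrays and 13644 genes the highest r of any gene is large by selection.

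The calls of the 2 factors depended on the setting to different degrees. *Hhex* passed the test in 17 of 22 other settings, including every fit that left out 1 array (0.74 to 0.97, limma adjusted p from 0.0110 to 0.0477). *Irx2* passed in 5 of 22, and its difference stayed positive in all 22. *Irx1* and *Pou3f4* passed in 0 of 22 and 0 of 20.

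**Figure D4:**
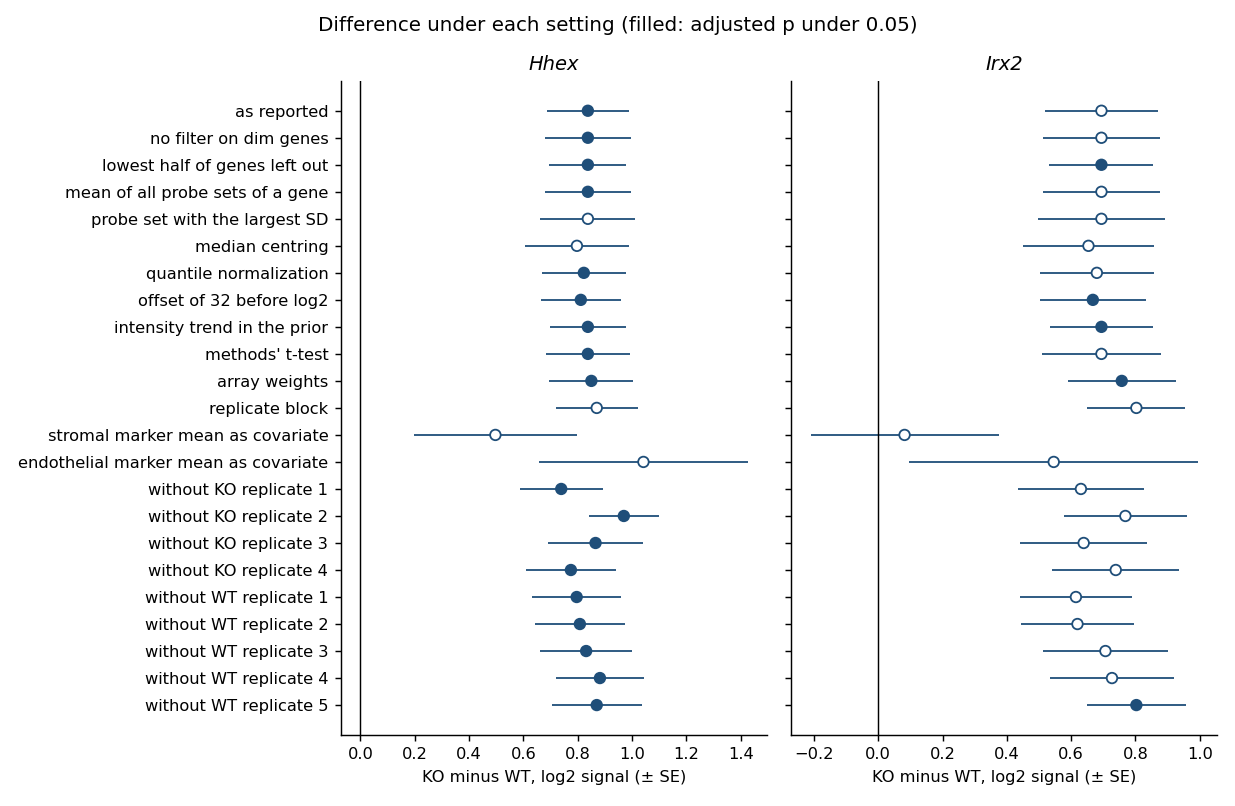
Difference of *Hhex* (left) and *Irx2* (right) between KO and WT islets (KO minus WT, log2 signal, ± SE) as reported and under 22 other settings, filled where the adjusted p was under 0.05. *Hhex* was called in 17 and *Irx2* in 5 of the 22, and the difference of *Irx2* was near 0 only with the stromal mean as a covariate.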

How the data were processed

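The authors deposited 1 log2 signal per probe set for each of 9 Affymetrix Mouse Genome arrays (4 KO, 5 WT). Genespring is named for the analysis. The method of summarising and scaling probes is not given in the sources used here. Linear signals had trimmed means between 497.1 and 497.7 on every array, 43 to 107 values per array stood at the lowest value, and probe sets were not centred. Replicates were separate pools, so p-values measure the spread between pools, and the number of arrays limits the precision.

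Of 45037 probe sets 34945 were paired with 1 gene, 932 with several and 9160 with none here. A gene was represented by its probe set with the highest mean, and the lowest 0.25 of genes was left out. KO was set against WT by limma 3.58.1 (R 4.3.3) with a two-sided test (no covariate, Benjamini-Hochberg over all tested genes, threshold 0.05), and the code was tested on simulated data. The t-test of the study's methods called 1094 genes at its fold and p thresholds and 717 after Benjamini-Hochberg adjustment. Of 135 genes on the lists 119 were measured, and the others were not analysed here. Named were all probe sets of the 4 factors, *Rptor*, hormone genes, up to 3 called genes per list (given here for lists of endocrine, receptor, Iroquois and endothelial genes), 2 neighbours on each side and the 3 genes most alike. Other settings, described with the closing values, changed the filter, probe set, scaling, offset, variance model, covariates and arrays used. The factors and the lists were chosen with earlier results of these data known. Replicate numbers were not used as pairs in the main test, as their meaning is not given. Figures were drawn with matplotlib 3.10.9.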

Additional observations from a re-analysis of the deposited data

Results flagged for a closer look

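The factors, *Rptor*, the hormone genes, the called genes named with per-array values or differences, *Rbp4*, the neighbours and the genes most alike were searched for an array far from the rest of its group (Dixon's ratio of gap to range), over 68 groups of arrays, of which chance flags about 1 in 20. None of the 5 probe sets of *Irx1*, *Irx2*, *Pou3f4* and *Hhex* was among the 3 groups found. *Sox17* read 7.92 in WT replicate 3 against 7.35 to 7.42 in the other WT arrays. *Trim12a*, alike to *Pou3f4*, read 7.38 in KO replicate 2 against 6.59 to 6.63 in the other KO arrays. *Ccpg1*, alike to *Hhex*, read 11.79 in WT replicate 1 against 11.90 to 11.95 in the other WT arrays.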

How the results depend on the processing

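The number of called genes, 860 as reported, was 452 with no filter on dim genes, 317 with the mean of all probe sets, 143 with the probe set of largest SD, 474 with median centring, 5 with the stromal and 1 with the endothelial mean as covariate, and 375 (without KO replicate 1) to 802 (without WT replicate 5) when 1 array was left out. Both marker means lay higher in every KO array than in any WT array, so the covariate fits cannot separate genotype from the marker mean. The cause of the shifts was not tested.

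*Hhex* lost its call with the probe set of largest SD (0.84, limma adjusted p = 0.0775), median centring (0.80, 0.0571), and the stromal (0.50) and endothelial (1.04) covariates. *Irx2* passed with the lowest 0.5 of genes left out (0.69), an offset of 32 (0.67), an intensity trend (0.69) and array weights (0.76), and ranged from 0.61 to 0.80 when 1 array was left out, passing without WT replicate 5. The sign turned for *Irx1* with the stromal (-0.39) and endothelial (-0.20) covariates, and for *Pou3f4* with these (-0.88 and -0.41) and the probe set of largest SD (-0.0027). Without 1 array *Pou3f4* ranged from -0.16 (without KO replicate 2) to 0.29, and was -0.075 without WT replicate 4. Relative to *Gcg*, *Irx2* differed by 0.64 with quantile normalization and 0.79 with the mean of probe sets, neither called, and by 0.70 to 0.87 without 1 array. *Irx1* relative to *Gcg* was 0.16 without WT replicate 1 and 0.076 with quantile normalization. *Pou3f4* relative to *Gcg* ranged from -0.065 (without KO replicate 2) to 0.41 without 1 array.

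With the replicate block (replicates 1 to 4) 61 genes were called. *Hhex* (0.87, limma adjusted p = 0.0728), *Hhex* relative to *Sst* (0.88, 0.0692) and *Irx2* relative to *Gcg* (0.86, 0.102) were not, and *Ins2* differed by 0.011. Arrays of the same number correlated at -0.04 to 0.12 after removal of group means, and arrays of different numbers at -0.11 to 0.16. No litter, day or batch is given for a number, so whether the numbers pair the arrays is not known.

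Quantile normalization turned the sign of *Gcg* (0.045), *Sst* (0.063) and *Ppy* (0.017), and the stromal covariate that of *Gipr* (0.22). *Ice1* had -0.033 with median centring, -0.011 with array weights and -0.15 and -0.025 with the stromal and endothelial covariates, *Ide* -0.11 and -0.14 with these, and *Exoc6* -0.026 with median centring. Without 1 array *Sst* ranged from -0.071 to 0.0056, *Ins2* from -0.14 to 0.018, *Ice1* from -0.049 to 0.042 and *Exoc6* from -0.029 to 0.044. In settings chosen after seeing the data, the *Irx1* change minus that of *Pou3f4* ranged from -0.23 to 0.41 without 1 array, *Irx2* minus *Pou3f4* from 0.35 (without WT replicate 5) to 0.93 (without KO replicate 2), *Pou3f4* minus *Hhex* from -1.13 to -0.42 (without the same arrays), and *Irx2* minus *Hhex* from -0.23 (without KO replicate 3) to -0.036 (without KO replicate 4).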
